A study of Rattus norvegicus with 3 samples.

Results

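High-dose polyphosphate was compared with no polyphosphate in ROS17/2.8 cells, on 1 array a side of a series of 3 arrays. Both cultures were the same clonal line, grown from a rat osteosarcoma and osteoblast-like, so all cells descend from 1 tumour clone. They were confluent and kept in mineralization medium, which supplied ascorbate phosphate and 1 mM β-glycerophosphate to treated and untreated cells alike. The high dose was 1 mg/ml for 24 h. The low dose array came from cells given 0.01 mg/ml for 24 h, and the control array from cells given none, with no time in its labels. A gene had a value where the scanner flagged a probe as well above background on both the high dose and the control array. Of 30367 probes 16696 (55.0%) met this, and they gave 14472 genes, 10708 of them named through RefSeq. Each value is the log2 of the signal after each array was scaled to its own 75th percentile, so that a difference of 1 is 2-fold. Signals of single genes are printed before that scaling.

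Polyphosphate is a chain of orthophosphate residues that phosphatases can shorten to phosphate, the anion of bone mineral. An osteoblast lays down a matrix of type I collagen and mineralizes it, which loads its endoplasmic reticulum (ER) with secretory protein. A pair of transcription programs recur in the results. Hypoxia-inducible factors (HIFs) switch on glucose uptake, glycolysis and angiogenic genes through DNA sites with the core ACGTG. The integrated stress response slows translation through phosphorylation of eIF2α while it favours the transcription factor ATF4, which in turn switches on CHOP, amino acid synthesis and transport and tRNA charging.

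With 1 array per group there was no replicate check and no test, and every difference compares these arrays. The ± values are spot errors, which measure how well repeat spots on an array repeat a log2 ratio and say nothing of culture or labelling. Precision is limited by having so few arrays. The arrays shared 1 slide, where position and group cannot be told apart. A lower signal from fewer cells of a kind and from less RNA per cell cannot be told apart either. The spike-in RNAs stood at -0.15 on the high dose array against the control. Centring on them instead would add 0.15 to every log2 ratio below and put the median of all genes at 0.14 in place of -0.01, so values between -0.15 and 0 change direction with that choice and differences are best read relative to the typical gene.

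Markers of bone were measured in both arrays for 8 of 10 genes, among them Runx2, Sp7, Col1a1, Alpl, Ibsp and Spp1, and Dmp1 and Phex were not well above background on both. Markers of other lineages were also partly above background, and their part in the results was not tested. On the high dose and control arrays alike, 5 of 10 cartilage markers, 2 of 9 fat markers, 7 of 8 skeletal muscle markers and 3 of 8 endothelial markers were measured. Leukocyte markers numbered 5 of 9 and 6 of 9, and osteoclast markers 2 of 8 and 3 of 8, on the high dose and control arrays in that order. The defining cartilage genes Acan and Col2a1, the fat genes Adipoq and Pparg, the muscle gene Myod1 and the leukocyte gene Ptprc were among those not measured. Those measured included Sox9, Sox6 and Comp of cartilage, Fabp4 of fat, Myog, Des and Actc1 of muscle and Cd68 and Laptm5 of leukocytes, all dim. Of the measured markers of other lineages, Cfd and Ckm were bright, at 0.15 ± 0.04 and -0.11 ± 0.05 (above 0 with spike-in centring).

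Dim genes scattered most. With genes split by level into 4 equal classes, 25.6% of the dimmest class differed by 25% or more in either direction, then 8.18%, 3.32% and, in the brightest class, 1.24%. Single genes below were therefore chosen mostly from 4764 bright genes, those at or above the median level with at least 2 spots well above background on both arrays, of which 4670 had every spot so. Counts and medians of gene lists cover all measured members, dim ones included, unless bright members are named. Their log2 ratios had an SD across genes of 0.13 and a median spot error of 0.04, against 0.20 and 0.07 over all measured genes. A gene is called past the 25% mark where the higher of the 2 signals was at least 25% above the lower. Of the bright genes 71 (1.49%) were higher at the high dose past the 25% mark and 35 (0.735%) lower. All differed by more than 2 spot errors, which the mark largely fixed in advance because it is far above the median spot error. Over all genes 710 (4.91%) were higher and 677 (4.68%) lower. Past 1.5-fold there were 5 bright genes higher (0.105%) and 0 lower, of all genes 127 (0.878%) and 86 (0.594%), and no bright gene was 2-fold apart. Above 0 were 45.9% of bright genes and below it 54.1%. Higher genes made 67.0% of the bright genes past the 25% mark, 80.0% (84 against 21) with the scaling of the authors' table and 100% (363 against 0) with spike-in centring. Over all genes the share was 51.2%, and 90.4% with spike-in centring. The spread narrowed with level, and Ddit3 and Slc2a1 stood apart from genes of like level, as the plot of ratio by level shows.

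**Figure D1:**
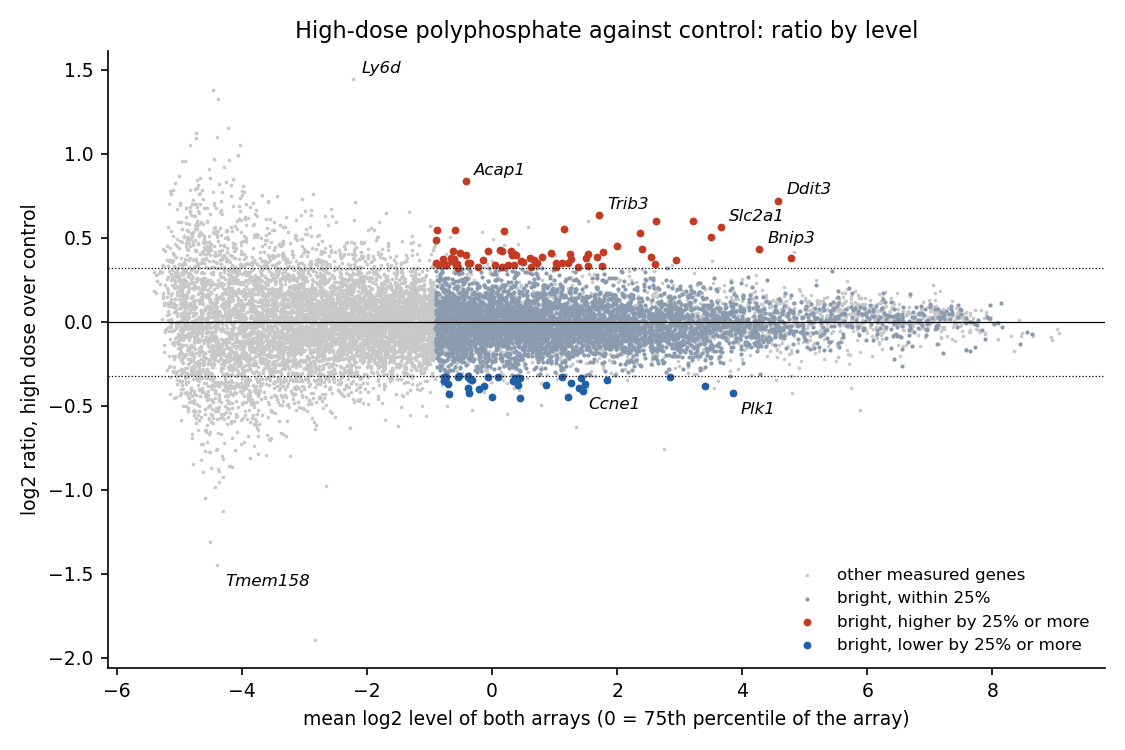
The log2 ratio of the high dose array over the control array (vertical axis) is plotted against the mean log2 level of both arrays (horizontal axis, 0 at the 75th percentile of the array) for 14472 genes, with dotted lines at a 25% difference. The 71 bright genes higher past the 25% mark (red) and the 35 lower (blue, 0 of them with spike-in centring) lie outside a band of bright genes that narrows with level, while the dim genes Ly6d and Tmem158 lie at the extremes.

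Promoters of 8 genes from the lists described below are printed first. Of these, 7 were picked because their window holds the motif searched for that gene. Ddit3 was picked as a leading gene without a match to its own motif. Each is given as the 250 bases before the start site in RefSeq's GRCr8 table, 5′ to 3′ on the gene's strand, in lower case. Capitals mark matches only to the motif searched for that gene. The HIF core ACGTG was searched on both strands, and a palindromic CACGTG counts as a match on each. It lay in 16.9% of 27457 such windows and in 25.8% of the 3718 windows of bright genes. Slc2a1 held 1 match, Bnip3 2, Bhlhe40 4 and Ankrd37 3. The windows of Vegfa, Adm, P4ha1, Egln1 and Tpi1, from the same lists, held none. A match is a run of letters and not a shown site.
Slc2a1: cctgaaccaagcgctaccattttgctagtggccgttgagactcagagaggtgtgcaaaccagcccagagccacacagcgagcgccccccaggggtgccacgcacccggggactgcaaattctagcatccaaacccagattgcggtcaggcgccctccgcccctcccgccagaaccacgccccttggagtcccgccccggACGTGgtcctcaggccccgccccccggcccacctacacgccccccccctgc
Bnip3: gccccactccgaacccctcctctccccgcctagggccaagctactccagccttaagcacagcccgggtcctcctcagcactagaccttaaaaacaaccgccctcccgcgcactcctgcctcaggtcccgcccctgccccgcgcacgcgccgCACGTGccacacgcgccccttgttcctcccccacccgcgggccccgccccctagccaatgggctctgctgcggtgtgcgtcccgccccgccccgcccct
Bhlhe40: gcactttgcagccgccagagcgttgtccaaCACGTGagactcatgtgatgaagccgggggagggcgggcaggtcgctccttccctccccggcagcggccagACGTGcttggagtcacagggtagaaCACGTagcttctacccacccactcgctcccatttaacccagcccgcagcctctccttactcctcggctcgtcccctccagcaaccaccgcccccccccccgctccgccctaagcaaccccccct
Ankrd37: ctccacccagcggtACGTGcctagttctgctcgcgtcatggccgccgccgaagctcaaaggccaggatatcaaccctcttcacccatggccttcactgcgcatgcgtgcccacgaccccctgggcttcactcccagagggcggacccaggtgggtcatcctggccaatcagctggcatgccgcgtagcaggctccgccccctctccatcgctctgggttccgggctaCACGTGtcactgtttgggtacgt

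The Slc2a1 window is on chr5:138002272-138002521 (plus strand), Bnip3 on chr1:203154963-203155212 (minus), Bhlhe40 on chr4:143174200-143174449 (plus) and Ankrd37 on chr16:53001257-53001506 (plus), all in GRCr8. Trib3 and Ddit3, the stress response genes, were searched for the composite C/EBP-ATF motif TGATGNAA on both strands, which lay in 3.27% of all windows and 2.07% of those of bright genes. Trib3 (chr3:161275534-161275783, minus) held 1 match on the reverse strand, 13 bases before the start site. Ddit3 (chr7:65001445-65001694, plus) held 0, which says only that these letters are not in this window. The same window does hold the HIF core ACGTG, left in lower case because that motif was not searched for Ddit3.
Trib3: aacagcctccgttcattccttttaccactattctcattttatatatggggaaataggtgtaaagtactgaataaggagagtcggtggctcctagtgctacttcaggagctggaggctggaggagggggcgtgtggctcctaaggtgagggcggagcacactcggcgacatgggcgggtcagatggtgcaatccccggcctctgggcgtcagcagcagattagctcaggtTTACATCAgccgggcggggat
Ddit3: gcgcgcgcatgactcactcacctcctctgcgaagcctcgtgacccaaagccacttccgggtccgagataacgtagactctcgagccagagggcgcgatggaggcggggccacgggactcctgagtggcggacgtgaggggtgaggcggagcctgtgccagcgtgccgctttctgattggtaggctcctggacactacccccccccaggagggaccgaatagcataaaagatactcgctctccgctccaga

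Mcm5 and Cdc25a, a replication helicase gene and a gene of entry into S phase, were searched for the E2F motifs TTTCCCGC, TTTGGCGC, TTTCGCGC and TTTGCCGC on both strands, found in 1.81% of all windows and 4.06% of those of bright genes. Mcm5 (chr19:13488563-13488812, plus) held 3 matches, of which 2 overlap on opposite strands and 1 ends at the start site. Cdc25a (chr8:118742798-118743047, plus) held 1, 228 bases before the start site. The windows of Fen1, Plk1 and Ccne1 held none.
Mcm5: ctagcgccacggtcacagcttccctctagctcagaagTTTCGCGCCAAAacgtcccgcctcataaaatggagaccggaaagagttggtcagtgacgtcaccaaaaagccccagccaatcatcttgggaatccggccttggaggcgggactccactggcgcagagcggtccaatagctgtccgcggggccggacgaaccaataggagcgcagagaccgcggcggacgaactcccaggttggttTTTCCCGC
Cdc25a: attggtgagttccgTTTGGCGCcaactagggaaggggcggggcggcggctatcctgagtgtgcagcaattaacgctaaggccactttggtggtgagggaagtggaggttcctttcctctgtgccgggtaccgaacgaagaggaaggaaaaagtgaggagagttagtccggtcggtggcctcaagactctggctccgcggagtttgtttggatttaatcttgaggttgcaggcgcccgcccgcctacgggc

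The bright genes furthest above 0 were led by Acap1 and by 3 genes of the stress response. Acap1, whose product is an Arf GTPase-activating protein of endosomal recycling, had a control signal of 519, a low dose signal of 616 and a high dose signal of 939. Its log2 ratio of 0.84 ± 0.06, a fold of 1.79, was the largest of any bright gene, and both of its spots gave nearly the same ratio, 0.83 and 0.85. The probe lies on chromosome 10 at 56725590 to 56725649 (rn4, minus strand), and no annotation of that build was used here. Acap1 was in none of the 48 lists.

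Ddit3, for the transcription factor CHOP, read 17232 in the control, 20862 after the low dose and 28713 after the high dose, a log2 ratio of 0.72 ± 0.04. Trib3, a pseudokinase gene that CHOP and ATF4 switch on, read 2439, 2749 and 3826 in the same order (0.63 ± 0.04). Ppp1r15a, whose product GADD34 directs a phosphatase to eIF2α and so lets translation resume, read 4641, 5252 and 7106 (0.60 ± 0.04). In each of these genes the high dose array was well apart from the control array, and the low dose array lay between them. Ero1a, the ER oxidase that reoxidizes protein disulfide isomerase and also a HIF target, read 6946, 8056 and 10626 (0.60 ± 0.04), with its probe on chromosome 15 at 21170400 to 21171722 in rn4, a span longer than a probe.

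Genes of oxygen and glucose supply came next. Slc2a1, the glucose transporter gene GLUT1, read 9620, 11675 and 14381 on the control, low dose and high dose arrays (0.56 ± 0.02 from 8 spots). Vegfa, an angiogenic growth factor gene, read 1700, 2125 and 2522 (0.55 ± 0.03), and its 4 probes ranged from 0.48 to 0.68. Bhlhe40, a transcriptional repressor gene of hypoxia and of the clock, read 417, 480 and 616 (0.55 ± 0.06). Ndrg1, a stress and hypoxia gene, followed at 0.50 ± 0.04. Of the 71 bright genes higher past the 25% mark, 11 (15.5%) were in the HIF or glycolysis lists, which hold 0.672% of all bright genes. The stress response regulators gave 5 (7.04%) and hold 0.231%. In any of the 48 lists, which together hold 15.5% of bright genes, were 27 (38.0%), which leaves 42 named genes outside them. The lists were chosen with earlier results of these data known, so these shares are not independent results.

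The other leading genes had varied roles. Col15a1, a collagen gene of basement membranes, read 510, 571 and 753 (0.55 ± 0.06, probe on chromosome 5 at 63930574 to 63930633, rn4). Ifi27l2b, of an interferon-inducible family, read 3981, 4502 and 5806 (0.53 ± 0.03), and its 2 probes gave 0.50 and 0.56. Gadd45a, a growth arrest gene, read 877, 997 and 1292 (0.54 ± 0.05). All 3 stood above the control on each probe. Casp12, for a caspase of the ER membrane, read 423, 464 and 598 (0.48 ± 0.03 from 9 spots). F3, for tissue factor, the trigger of blood clotting, read 3147, 3792 and 4354 (0.45 ± 0.04). Myc, the growth transcription factor gene, read 4193, 4496 and 5731 (0.43 ± 0.02 from 10 spots), with the low dose array nearer to the control than to the high dose.

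Of the 35 bright genes lower past the 25% mark, 5 (14.3%) were in the cell cycle lists, which hold 1.64% of all bright genes, and 6 (17.1%) in any list. The cell cycle lists too were chosen with earlier results known, so their share is not an independent result. Plk1 and Ccne1 are members of these lists and Mybl2 of none, and their values stay below 0 with spike-in centring. Plk1, for a kinase that drives mitosis, read 15432, 14987 and 11635 in the order control, low dose, high dose, a log2 ratio of -0.42 ± 0.04 (probe on chromosome 1 at 181012641 to 181012700, rn4). Ccne1, for cyclin E1, read 2799, 2667 and 2153 (-0.39 ± 0.05). Mybl2, for the transcription factor B-Myb of cell cycle genes, read 1411, 1442 and 1098 (-0.38 ± 0.04), and its 2 probes disagreed in size, at -0.22 and -0.54. In Plk1, Ccne1 and Mybl2 the high dose array was low and the low dose array close to the control.

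Other genes among the 15 lowest had varied roles. Creb3l1, for the ER-membrane transcription factor OASIS, which osteoblasts need for type I collagen synthesis, read 11246, 11872 and 8716 on the control, low dose and high dose arrays (-0.38 ± 0.04), and its spots gave -0.38 and -0.39. Its probe lies on chromosome 3 at 76361171 to 76361230 (rn4). Cybrd1, for a ferric reductase, read 1079, 1079 and 800 (-0.45 ± 0.05). The low dose array was near the control for both genes. Sdc3, for the heparan sulfate proteoglycan syndecan 3, read 832, 873 and 628 (-0.42 ± 0.05). B4galt5, for the enzyme that makes lactosylceramide, read 2510, 2295 and 1972 (-0.36 ± 0.02 from 10 spots), with the low dose array between the others.

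Sema6c, a transmembrane semaphorin gene, had the lowest mean of the bright genes, -0.45 ± 0.11, but its probes disagreed. Its strong probe read 39406, 38008 and 34438 on the control, low dose and high dose arrays and gave -0.21, while the other, with spots between 49.6 and 62.9 on the control array, gave -0.69. The remaining genes of the lowest 15 stood between -0.43 and -0.35. They were Znrf4, an E3 ligase gene (-0.43 ± 0.06), Snn, for stannin (-0.41 ± 0.04), Zfp385a, a zinc finger gene (-0.39 ± 0.09), Sephs1, a selenophosphate synthetase family gene (-0.38 ± 0.05), the receptor kinase gene Grk6 (-0.37 ± 0.04), the glutaredoxin gene Glrx (-0.37 ± 0.03 from 9 spots) and the Polycomb gene Cbx6 (-0.35 ± 0.07). The probes of Sephs1 gave -0.19 and -0.57, and those of Cbx6 -0.25 and -0.46. Those of Grk6 gave -0.32 and -0.43, and those of Zfp385a -0.34 and -0.45. In each of these genes the brighter probe gave the smaller difference, so their sizes are uncertain.

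**Figure D2:**
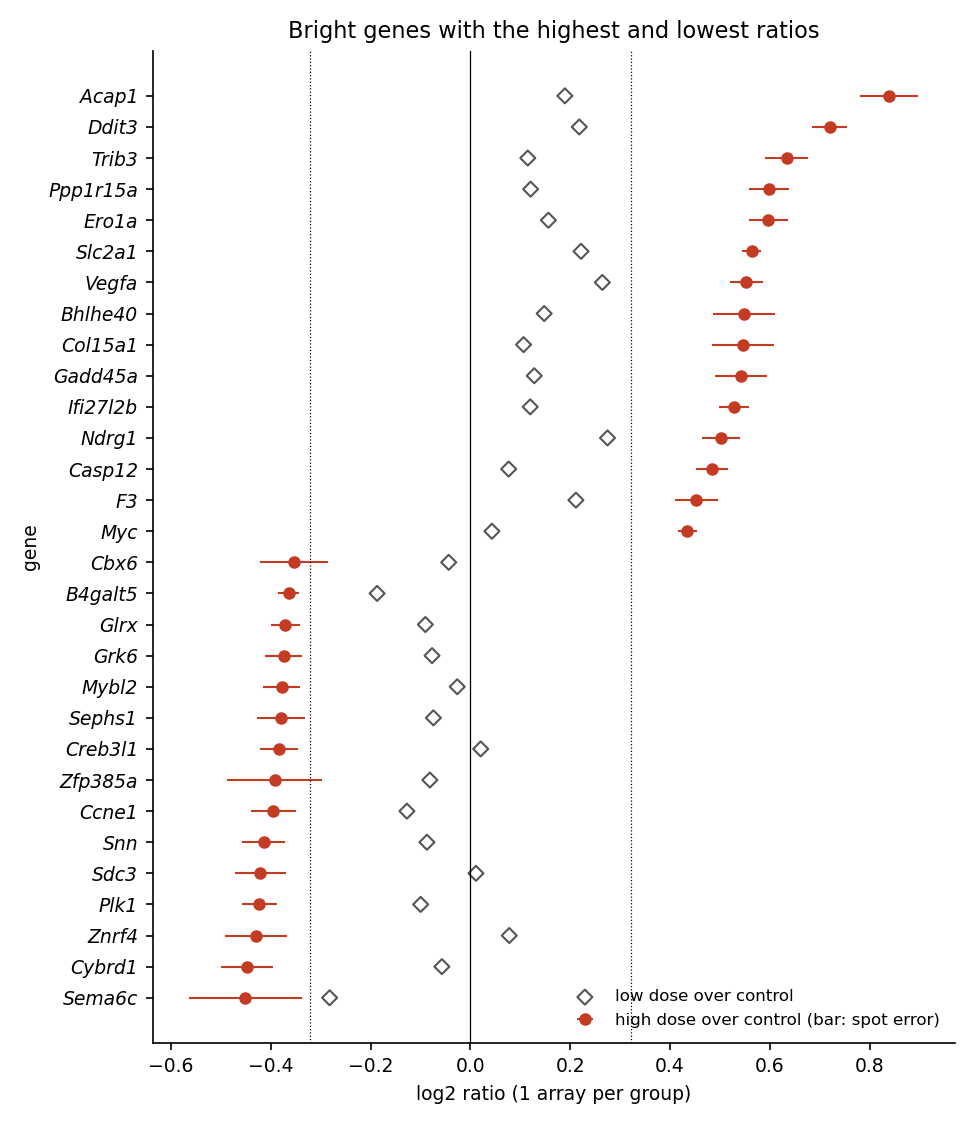
Log2 ratios over the control array (horizontal axis) are plotted for the 15 bright genes furthest above 0 and the 15 furthest below (vertical axis), as filled circles with spot error bars for the high dose and open diamonds for the low dose, which shares the control array. High dose values run from 0.84 for Acap1 to -0.45 for Sema6c, and the low dose values are smaller in size, from 0.27 for Ndrg1 to -0.28 for Sema6c.

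HIF target genes outside glycolysis were the list furthest above 0. Of 21 measured members 19 were above 0, against 48.3% of all genes, and 10 lay past the 25% mark higher, against 4.91%. None lay past it lower. The median log2 ratio was 0.28, and 0.38 over the 16 bright members, of which 9 lay past the 25% mark. The same list had a median of 0.12 on the low dose array over the same control. Earlier results of these data had shown hypoxia genes higher, so the direction is not an independent result.

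Mitochondrial turnover, matrix and peptide genes of the list were among its members past the 25% mark. Bnip3, a receptor that marks mitochondria for removal, read 15389, 19023 and 21002 on the control, low dose and high dose arrays (0.43 ± 0.04), and its paralog Bnip3l stood at 0.21 ± 0.04. Adm, for the vasodilator adrenomedullin, read 22369, 27488 and 29394 (0.38 ± 0.02). Mxi1, for an antagonist of Myc, read 871, 1022 and 1184 (0.43 ± 0.04). In Bnip3 and Adm the low dose array was nearer to the high dose than to the control. Ankrd37 stood at 0.38 ± 0.02 and P4ha1, for the collagen prolyl hydroxylase, at 0.40 ± 0.05. The oxygen sensor gene Egln1 stood at 0.28 ± 0.06, and the membrane carbonic anhydrase gene Car9, which was not bright, at 0.41 ± 0.07. Ak4 and Jmjd6, at -0.04 ± 0.04 and -0.06 ± 0.07, would be above 0 with spike-in centring.

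Glycolysis genes were above 0 in 19 of 20 measured, against 48.3% of all genes, with a median of 0.23. Past the 25% mark 4 (20%) were higher, against 4.91% of all genes. Of the 4 past the 25% mark 2 were bright, Slc2a1 and Eno2, and 2 dim, Slc2a3 at 0.62 ± 0.19 and Aldoc at 0.35 ± 0.18. With members at or above the 75th percentile of level only, the median relative to bright genes of that level was 0.12. Over all measured members it was 0.24 relative to all genes. The enzymes differed among themselves. Eno2, the neuronal enolase, read 1900, 2234 and 2451 (0.35 ± 0.04), and Tpi1, for triose phosphate isomerase, 36172, 41061 and 45038 (0.30 ± 0.02). Pfkp, a phosphofructokinase gene, stood at 0.27 ± 0.04, Pdk1, whose kinase keeps pyruvate out of the mitochondrion, at 0.26 ± 0.05, Aldoa at 0.25 ± 0.04 and Hk2 at 0.22 ± 0.05. Another set stood closer to 0: Pgk1 at 0.11 ± 0.03, Eno1 at 0.10 ± 0.03, Ldha at 0.08 ± 0.03, Gapdh at 0.06 ± 0.02 and Hk1 at 0.02 ± 0.04. Pfkm stood at -0.11 ± 0.04, or above 0 with spike-in centring. The HIF core lay in the windows of 8 of 18 glycolysis genes (44.4%) and of 7 of 17 other HIF targets (41.2%), against 25.8% of bright genes.

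Genes of the mitochondrion did not share these values. Of 19 TCA cycle genes, all bright, 14 were below 0 with a median of -0.07, which became 0.08 with spike-in centring, and none lay past the 25% mark. Ogdh, for the oxoglutarate dehydrogenase, read 1403, 1421 and 1215 (-0.22 ± 0.03), and Idh3a, for isocitrate dehydrogenase, 568, 536 and 491 (-0.23 ± 0.06). The 78 measured genes of the respiratory complexes had a median of -0.01, or 0.14 with spike-in centring, with 35 above 0, 43 below and 0 past the 25% mark. Their extremes were Cox6a2, the muscle form of a cytochrome oxidase subunit, at 0.32 ± 0.04 and Atp5mc3, of the ATP synthase ring, at -0.29 ± 0.03. The difference between glycolysis and TCA cycle medians was not tested.

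Regulators of the stress response stood above 0 and their biosynthetic targets around it, a difference between lists that was not tested. The regulators had 13 of 14 measured members above 0, against 48.3% of all genes, and a median of 0.28. Past the 25% mark 5 were higher, against 4.91% of all genes. The same list had a median of 0.06 at the low dose. Cebpb, a partner of CHOP and ATF4, read 6266, 6777 and 8174 on the control, low dose and high dose arrays (0.37 ± 0.04). Gdf15, for a secreted stress cytokine, read 626, 1023 and 807 (0.35 ± 0.06), with its highest value at the low dose. Ddit4, for an inhibitor of mTORC1, stood at 0.30 ± 0.03, Cebpg at 0.30 ± 0.05 and Atf4 itself at 0.20 ± 0.01 from 44952 on the control array to 52288. Atf5 stood at -0.10 ± 0.04, or above 0 with spike-in centring.

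Amino acid synthesis genes had a median of -0.02, or 0.13 with spike-in centring, with 6 of 13 above 0. Mthfd2, of mitochondrial folate metabolism, stood at 0.15 ± 0.03 and Psph at 0.11 ± 0.04, while Asns, the asparagine synthetase gene, stood at 0.07 ± 0.04, Psat1 at -0.02 ± 0.04 and Phgdh at -0.03 ± 0.03. Gpt2 and Pycr1, dim genes, were the only members past the 25% mark, at 0.39 ± 0.19 and -0.35 ± 0.11. Amino acid transporter genes had a median of 0.07 over 10 genes, with Slc3a2 at 0.13 ± 0.04 and Slc7a11 at 0.08 ± 0.05. The 20 genes of tRNA charging had a median of 0.00, with 10 on each side of 0 and 0 past the 25% mark. The composite motif lay in the windows of 3 of 13 regulators (23.1%), Chac1, Nupr1 and Trib3. ER chaperones had a median of 0.06 with 1 of 23 past the 25% mark, Hsp90b1 at 0.34 ± 0.04, while Hspa5, the main ER chaperone gene, stood at 0.15 ± 0.04.

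Cytosolic and mitochondrial heat shock genes formed a list of their own. Of 18 measured 13 were below 0, with a median of -0.06 that became 0.09 with spike-in centring. Hspa8, the constitutive HSP70, read 15672, 16350 and 13853 (-0.19 ± 0.02), and Cryab, a small heat shock protein gene, 3850, 3944 and 3385 (-0.20 ± 0.04). Hspa4 read 2147, 2700 and 1816 (-0.26 ± 0.05), highest at the low dose. Hspa9, the mitochondrial HSP70, stood at 0.28 ± 0.05. Targets of NRF2, the antioxidant factor, had a median of 0.08 with Hmox1 at 0.34 ± 0.02 and Sqstm1 at 0.18 ± 0.03. Metal genes had a median of -0.06, or 0.09 with spike-in centring, with 2 of 19 past the 25% mark higher, against 4.91% of all genes. The 2 were Hmox1 again and the metallothionein gene Mt1, which read 930, 1111 and 1177 (0.32 ± 0.05).

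Other stress lists were mixed. Targets of p53 had a median of 0.16 over 19 genes. Past the 25% mark 2 were higher and 1 lower, against 4.91% and 4.68% of all genes. Tp53inp1 stood at 0.36 ± 0.06, Mdm2 at 0.26 ± 0.03 and Bbc3, for the cell death protein PUMA, at 0.26 ± 0.04, while Zmat3 stood at -0.28 ± 0.05 and Cdkn1a, for p21, at -0.05 ± 0.03. Autophagy genes had a median of 0.00 and 0 of 20 past the 25% mark, from Atg3 at 0.31 ± 0.02 and Optn at 0.25 ± 0.03 to Atg4b at -0.32 ± 0.09. Immediate early genes had a median of 0.09 over 21 genes, with 2 past the 25% mark, Myc and the dim Dusp4 at 0.36 ± 0.28. Klf6, Klf10 and Jun stood between 0.17 and 0.21, and Fosb at -0.18 ± 0.06. Cholesterol synthesis genes had a median of 0.09, with 19 of 24 above 0. Fatty acid genes stood at 0.04, with the desaturase genes Scd and Scd2 at 0.23 ± 0.04 and 0.22 ± 0.01 and the synthase gene Fasn at -0.18 ± 0.04.

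At the high dose, genes of DNA replication were lower. Of 43 measured 38 were below 0, against 51.7% of all genes, and 28 of 29 bright members were, with a median of -0.18. With spike-in centring 24 of 43 were below 0 and the median was -0.03. Past the 25% mark 4 (9.30%) were lower, against 4.68% of all genes, and none higher. The 4 were the bright Mcm5 and the dim Cdt1, Gins3 and Uhrf1. The median at the low dose was -0.02. Earlier results of these data had shown this direction too.

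The bright members furthest from 0 were all below it. Mcm5 and Mcm7, of the helicase, stood at -0.33 ± 0.06 and -0.25 ± 0.04, Mcm5 from signals of 994 and 1008 on the control and low dose arrays to 799. Fen1, for the flap endonuclease, read 14492, 14400 and 11725 (-0.32 ± 0.02), and Chaf1a, of the chromatin assembly factor, 4838, 4766 and 4015 (-0.28 ± 0.04). Rpa2, of the single-strand binding protein, read 1757, 1745 and 1464 (-0.28 ± 0.02), and Rrm2, for the ribonucleotide reductase, stood at -0.25 ± 0.05. The low dose ratios of these 6 genes over the same control lay between -0.08 and -0.04, so in each the high dose array was the low one.

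Histone genes of replication were lower in the bright range. These genes form large families with near-identical copies, and a probe may read several, so a single member's value is uncertain. Of 24 measured 18 were below 0, as were 11 of 11 bright members, and the median was -0.17. With spike-in centring 14 of 24 were below 0 and the median was -0.02. Past the 25% mark 4 were lower, 2 of them bright, and 1, the dim H2ac21, higher, against 4.68% and 4.91% of all genes. Hist1h2bd read 3725, 3448 and 2956 on the control, low dose and high dose arrays (-0.35 ± 0.04). Hist1h2bg read 4617, 4386 and 3797 (-0.30 ± 0.04), and Hist2h3c2 4922, 4539 and 4257 (-0.23 ± 0.04). The linker histone gene H1f4 stood at -0.21 ± 0.04 and H4c14 at -0.35 ± 0.10. In the 3 genes with signals given, the low dose array lay between the others, and the list's median there was -0.09.

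Of 20 measured genes of the G1 phase and of E2F 16 were below 0, against 51.7% of all genes. With spike-in centring 9 were below 0. The median over 20 genes was -0.15, or 0.00 with spike-in centring. The activators Ccne1, Cdc25a, E2f1 and Cdk2 stood at -0.39, -0.32, -0.23 and -0.18, each with an error of at most 0.07. Cdkn1b, for the cyclin-dependent kinase inhibitor p27, read 704, 770 and 893 (0.33 ± 0.03) and Rb1, for the retinoblastoma protein, 466, 466 and 532 (0.18 ± 0.07), the only bright members above 0. Ccnd1 and Cdk4 stood at -0.14 ± 0.04 and -0.03 ± 0.04, above 0 with spike-in centring. E2F motifs lay in the windows of 8 of 36 replication genes (22.2%) and of 3 of 15 G1 genes (20%), against 4.06% of bright genes, and of 1 of 32 mitosis genes (3.12%).

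Mitosis genes had a median of -0.06, which became 0.09 with spike-in centring, and 26 of 38 were below 0. Past the 25% mark was 1 gene, Plk1. Espl1, for separase, read 4041, 3904 and 3281 (-0.32 ± 0.04), and Incenp, of the chromosomal passenger complex, 2175, 2243 and 1861 (-0.24 ± 0.05). Aurka and Cdc20 stood at -0.18 ± 0.04 and -0.17 ± 0.05. Values of mitosis genes were thus spread more widely than the median shows.

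Protein synthesis and turnover genes differed by small amounts. Ribosomal protein genes had medians of 0.03 for the large subunit (30 of 45 above 0) and 0.02 for the small (24 of 32 above 0), led by Rps14 and Rps15a at 0.18 ± 0.02 and 0.17 ± 0.03. Ribosome assembly genes had 27 of 30 below 0 and a median of -0.07, or 0.08 with spike-in centring, with Bysl at -0.26 ± 0.06 and Nhp2 at -0.25 ± 0.04, and a median of -0.06 at the low dose. Mitochondrial ribosomal protein genes had a median of -0.03 and translation factors of -0.03, both above 0 with spike-in centring, and Eif3b stood at -0.25 ± 0.04.

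Proteasome genes had 33 of 38 below 0 with a median of -0.08, or 0.07 with spike-in centring, and 0 past the 25% mark in either direction. By more than 2 spot errors 20 were below 0 and 0 above, and the share of all genes past that limit was not counted. Of the 78 respiratory genes, 14 were above 0 and 18 below by as much. Spot errors do not cover the scaling, and with spike-in centring 31 of the 38 proteasome genes were above 0. Psmd3, of the regulatory lid, read 1353, 1341 and 1167 (-0.23 ± 0.05), Psmd1 39073, 41591 and 35196 (-0.17 ± 0.03), and Psmc1, an ATPase of the base, stood at -0.16 ± 0.04. The list's median at the low dose was 0.02. Lysosomal genes had a median of 0.02 with 2 of 26 past the 25% mark higher, against 4.91% of all genes. The bright one was Asah1, for acid ceramidase, which read 518, 557 and 682 (0.38 ± 0.06). Genes of the lysosomal proton pump had a median of -0.03, above 0 with spike-in centring, and 0 of 19 past the 25% mark.

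**Figure D3:**
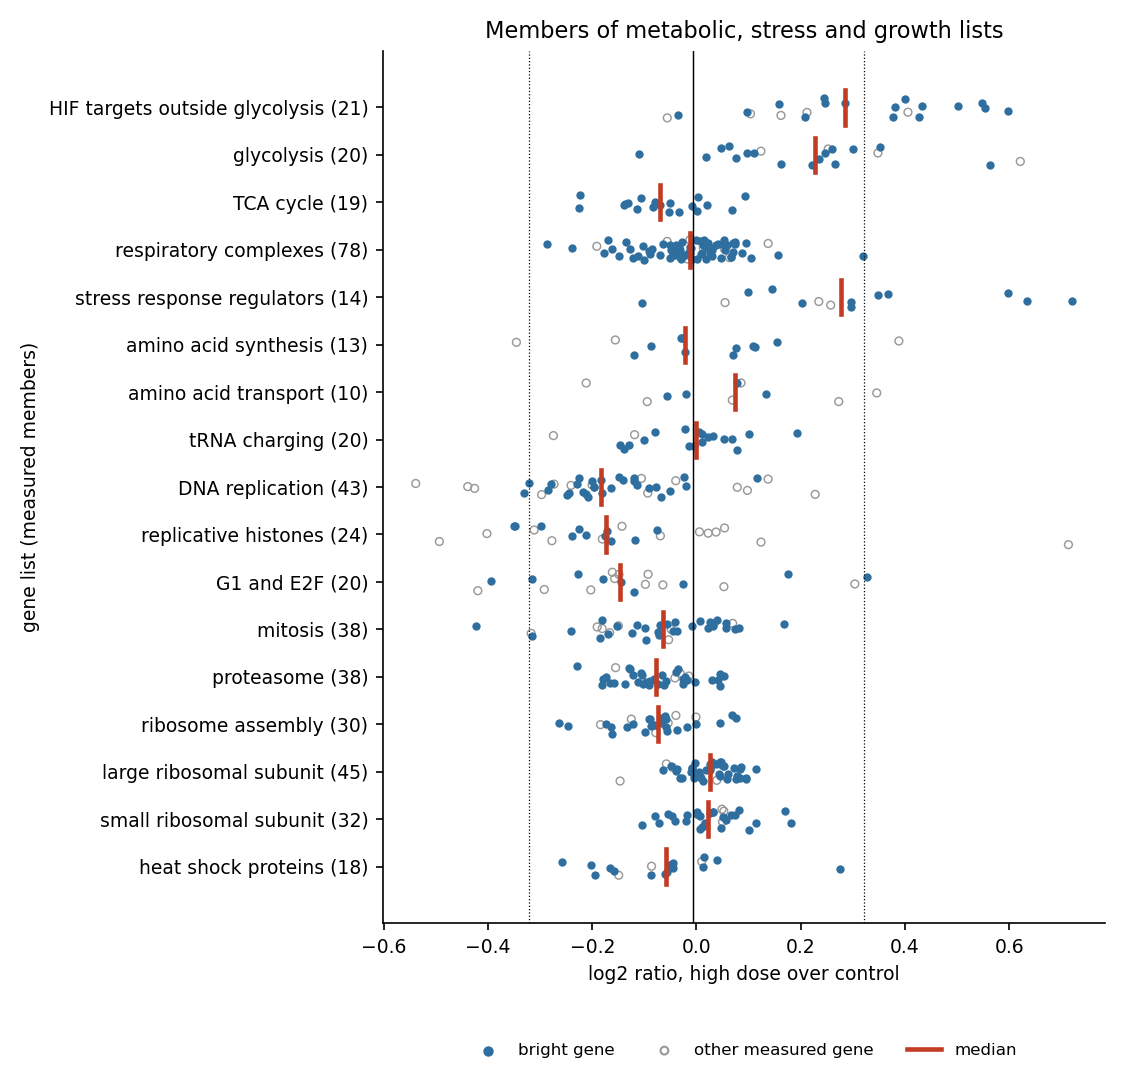
The log2 ratio of high dose over control (horizontal axis) is plotted for each measured member of 17 lists (vertical axis, number of members in brackets), with filled circles for bright genes, open circles for others, red bars for medians, a solid line at the median of all genes (-0.01) and dotted lines at a 25% difference. HIF targets, glycolysis and the stress response regulators have medians of 0.28, 0.23 and 0.28, replication and histone genes of -0.18 and -0.17 (-0.03 and -0.02 with spike-in centring), and amino acid synthesis and tRNA charging of -0.02 and 0.00 (0.13 and 0.15 with it).

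Bone genes were spread around 0. Osteoblast transcription factor genes had a median of -0.07 over 16 genes, or 0.08 with spike-in centring. Msx2, a homeobox gene of bone, read 1226, 1188 and 1023 (-0.28 ± 0.04). Sp7 and Runx2, the defining factors, stood at -0.20 ± 0.09 and -0.16 ± 0.08, Sp7 from dim signals. The 3 probes of Runx2 disagreed in size. Its strong probe, with spots at 2332 and 2333 on the control array, gave -0.05, which is above 0 with spike-in centring. The weaker probes reached -0.27. Bone matrix genes had a median of -0.01, or 0.14 with spike-in centring. Spp1, for osteopontin, read 9898, 10480 and 12002 (0.26 ± 0.02), Ibsp stood at -0.02 ± 0.04, Sparc, for osteonectin, at -0.17 ± 0.04, and Bglap, for osteocalcin, at 0.23 ± 0.22 near background. At this scaling Spp1 was higher and Sparc lower by several spot errors. Spike-in centring adds 0.15, which leaves Sparc near 0.

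Collagen chains and the enzymes that process them did not share a direction at this scaling. Of 41 collagen genes 20 were measured, 16 of them below 0, with a median of -0.09 that became 0.06 with spike-in centring. Col1a1, for the main bone chain, read 4681, 4837 and 4042 (-0.23 ± 0.04), with a scaled low dose ratio of -0.01 over the same control. Col5a2 and Col6a2 stood at -0.11 ± 0.04 and -0.09 ± 0.04, above 0 with spike-in centring, and Col16a1 and Col15a1 at 0.16 ± 0.04 and 0.55 ± 0.06. Processing genes had a median of 0.01 with 2 of 24 past the 25% mark higher and 1 lower, against 4.91% and 4.68% of all genes. P3h2, a prolyl 3-hydroxylase gene, read 857, 1018 and 1094 (0.34 ± 0.05) beside P4ha1, while P3h1 stood at -0.19 ± 0.07. P4ha2, Loxl2 and Plod2 stood at 0.25 ± 0.04, 0.25 ± 0.04 and 0.16 ± 0.04, and with P4ha1 they are also members of the HIF list.

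Genes of mineral and phosphate handling were mixed. Mineralization genes had a median of -0.03 and phosphate genes of -0.04, both above 0 with spike-in centring. Alpl, for the alkaline phosphatase that also cleaves polyphosphate, read 2962, 3285 and 2733 on the control, low dose and high dose arrays (-0.13 ± 0.04), which is above 0 with spike-in centring. Enpp1 and Enpp3, for ectoenzymes that make pyrophosphate, stood at 0.18 ± 0.02 and 0.19 ± 0.02. The kinase genes Fam20c and Fam20b stood at -0.18 ± 0.06 and -0.17 ± 0.05. Among phosphate genes the transporter genes Slc20a1 and Slc20a2 stood on opposite sides of 0, at 0.16 ± 0.05 and -0.22 ± 0.07, Ppip5k1, of inositol pyrophosphate synthesis, at -0.23 ± 0.03, and the phosphate-regulating hormone gene Stc1 at 0.35 ± 0.06 from 646 on the control array to 833.

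Surface proteoglycan genes differed within their family. Sdc4, for syndecan 4, read 594, 675 and 747 (0.32 ± 0.04), where Sdc3 had read lower, and Sdc1 and Sdc2 stood at -0.02 ± 0.04 and 0.12 ± 0.03. Fmod and Vcan stood at -0.17 ± 0.04 and -0.19 ± 0.06. Cdh22, a cadherin gene, was the lowest bright adhesion gene and read 20107, 19730 and 16375 (-0.31 ± 0.04). The adhesion list had a median of -0.01 and the matrix proteases of -0.05, both above 0 with spike-in centring, and Timp1 stood at -0.05 ± 0.02.

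Signalling lists had medians near 0. FGF genes and their feedback inhibitors had a median of 0.07, with 13 of 18 above 0, against 48.3% of all genes. Against 4.91% of all genes, 4 lay past the 25% mark higher, none of them bright. Among them Fgf9 read 381, 425 and 572 (0.57 ± 0.07). BMP and TGF-beta genes had a median of 0.03 over 32 genes. The ligand genes Inhba and Tgfb1 stood at 0.31 ± 0.05 and -0.28 ± 0.03, the latent binding protein gene Ltbp1 at 0.30 ± 0.06, and the inhibitor gene Smad7 at -0.27 ± 0.05, so members lay well apart on both sides. Smad7 read 1654, 1725 and 1389. WNT genes had a median of -0.07 (18 of 25 below 0), or 0.08 with spike-in centring, and the secreted inhibitor gene Wif1 stood at -0.20 ± 0.02. IGF genes had a median of 0.01 with Igf2r at 0.32 ± 0.06.

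Remaining lists held few bright genes past the 25% mark. Interferon genes had a median of 0.02 with 1 of 22 past it, although Ifi27l2b, which is not in that list, was among the leading genes, and Ifi27 stood at 0.10 ± 0.04. Purinergic genes had a median of 0.00, with the nucleoside transporter gene Slc29a1 at 0.26 ± 0.06 and Adk at 0.17 ± 0.06, and 17 of 29, P2rx7 and P2ry2 among them, were not measured. Cytokine genes had a median of -0.05, above 0 with spike-in centring, and the osteoclast regulators Tnfsf11 and Tnfrsf11b were not measured. Hormone receptor genes stood at -0.04, above 0 with spike-in centring, with Rara at 0.28 ± 0.05 and Pth1r at -0.07 ± 0.06. Clock genes had a median of 0.04, with Dbp at 0.26 ± 0.03, and actin and YAP genes of 0.00, with Actb at -0.19 ± 0.01 and Actg2 at 0.18 ± 0.03.

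**Figure D4:**
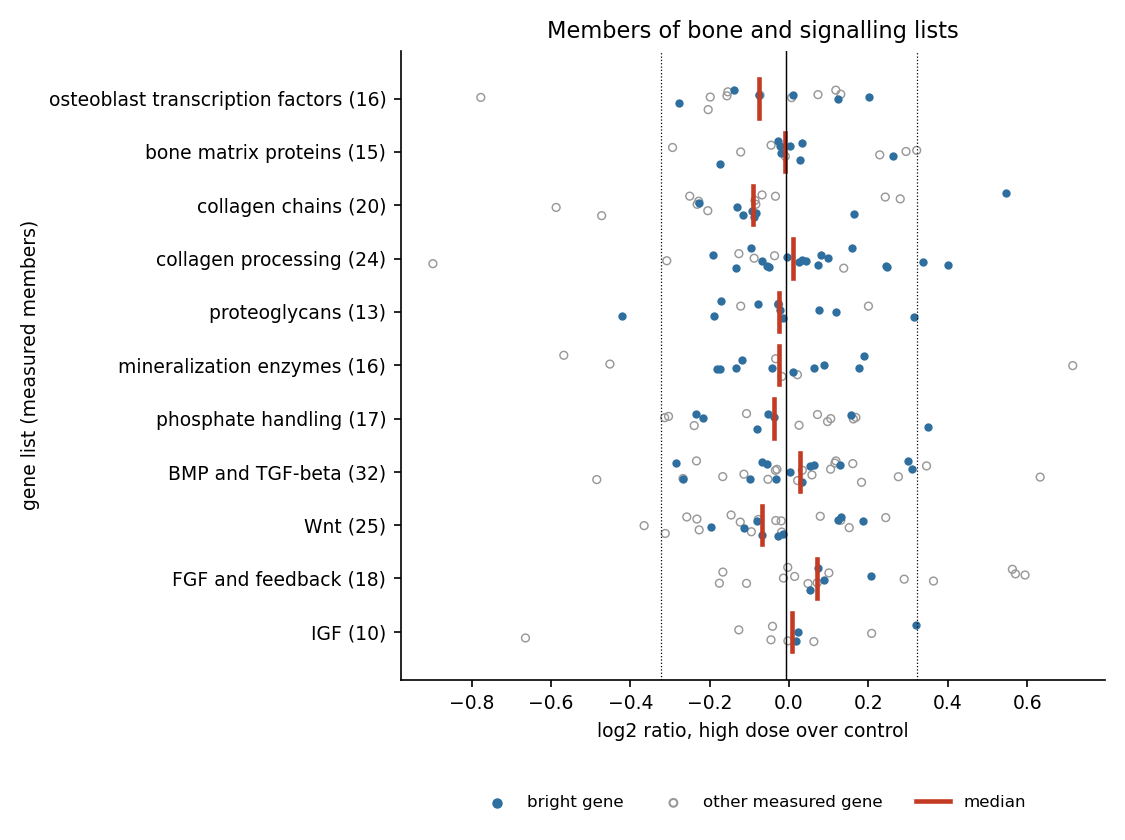
The log2 ratio of high dose over control (horizontal axis) is plotted for each measured member of the bone, matrix and signalling lists (vertical axis, number of members in brackets), with filled circles for bright genes, open circles for others, red bars for medians, a solid line at the median of all genes (-0.01) and dotted lines at a 25% difference. Medians lie between -0.09 for collagens (0.06 with spike-in centring) and 0.07 for FGF genes, while single bright genes such as Col15a1 at 0.55 and Sdc3 at -0.42 lie beyond that mark.

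Over genes of any brightness the extremes were dim. Ly6d, a surface protein gene, read 121, 155 and 332 in the order control, low dose, high dose (1.45 ± 0.09 from 2 spots). The other extremes rested on 1 spot per array. A probe without a gene name on chromosome 1 (41385839 to 41385898, rn4) stood at 1.38 ± 0.31, and another on chromosome 3 (47187273 to 47187332) at -1.89 ± 0.15 from a control signal of 250.4. Tmem158, a membrane protein gene, read 72.9, 32.2 and 27.0 (-1.45 ± 0.31). Past 2-fold lay 9 genes higher (0.0622%) and 5 lower (0.0345%), none bright. Beside the 14472 genes measured on both arrays, a further 243 passed the background flag on the high dose array and not on the control array, and 557 the other way round. The control array passed more spots as a whole, 60.5% against 59.4%, so these counts are not read as genes lost at the high dose.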

How the data were processed

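The study measured RNA of ROS17/2.8 cells on 3 one-colour rat arrays, 1 per group, grouped by their treatment labels. Per the labels' protocols, Cy3-labelled cRNA was made from 50 ng of total RNA. The authors deposited spot intensity files from Agilent Feature Extraction 10.7.3.1 for design 028279 (rn4), which were, per the file headers, background-subtracted and detrended but not normalized between arrays. The deposited flags of 0 or 1 (well above background, saturated, outlier) were used to choose spots. The authors' deposited series table is a ratio, found here to be the processed signal over 1 constant per array (823, 849 and 823 for high, low and control, within 0.000123%), on a linear scale, uncentred between genes, with the control not used as the divisor. Its column medians were 0.0734, 0.0731 and 0.0737.

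Of 58717 non-control spots, 59.4%, 60.0% and 60.5% passed the background flag on the high dose, low dose and control arrays, 352, 368 and 426 were outliers and left out, and 0 were saturated. The 75th percentile of signal was 937, 964 and 926. The log2 values were centred on it. Spots of a probe were averaged, then probes of a gene. Spot errors pooled the SD between repeat spots in 20 bins of level. RefSeq names (GRCr8, names and promoters only) reached 22191 of 30367 probes (73.1%), and the others kept the name in the files. With 1 array a group no test was run. The steps were tested on simulated data, with limma 3.58.1 for the alternatives, Python 3.11.15 and pandas 2.3.3.

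Counts use a difference of 25%. The named genes are the 15 highest and 15 lowest bright genes with a symbol, every spot well above background and all spots in 1 direction, in each list up to 6 bright members furthest from 0 and any member of a list of 25 or fewer, Col1a1, Alpl, Sp7, Runx2, Spp1, Ibsp and Bglap, and the 2 highest and 2 lowest of any brightness. Genes named beyond this were chosen after their values were seen. The members, the 48 lists and the 7 marker lists were chosen with earlier results of these data known.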

Additional observations from a re-analysis of the deposited data

How the results depend on the processing

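No paired analysis was possible because each group holds 1 array and no test was run, and for the same reason no array could be left out. With the arrays centred on spike-ins, genes past the 25% mark numbered 2025 higher and 214 lower and bright genes 363 and 0. With the scaling of the authors' deposited table, bright genes lower past the mark numbered 21. With normexp background correction 158 genes were higher and 144 lower, and 22 bright genes lower. With a bright level at the 75th percentile of genes, 21 bright genes were higher and 8 lower. Relative to the bright genes of that level the medians were 0.12 for glycolysis and 0.40 for HIF targets outside it. Past 1.5-fold there were 127 and 86 genes, 5 and 0 of them bright, and past 2-fold 9 and 5, 0 and 0 of them bright. Over bright members only, an alternative added after the data were seen, the HIF median relative to bright genes was 0.39. The cause of these shifts was not tested, except that a higher fold or level admits fewer genes. No named gene past the mark changed sign under these settings. Of the 30 leading bright genes, all kept their direction under 9 other settings, and past the mark stayed 26 with the brightest probe of a gene, 15 with spike-in centring, 27 with normexp and 30 otherwise. Those 30 were chosen for large ratios with all spots in 1 direction, and spike-in centring adds only 0.15. Several settings therefore could not reverse them, or any gene past the mark, and the kept directions are no independent check. Dim signals limit Sp7, Bglap, the weaker probes of Runx2 and the genes not well above background, for which no value is given.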
